A study of Mus musculus with 8 samples.

Results

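Liver RNA was examined for 35 genes of fatty acid and triglyceride synthesis. They came from a list of lipogenesis, elongation, desaturation and glycerolipid assembly genes, chosen with earlier results of these data known. They were matched by symbol to the gene identifiers of the count table. Each of the 35 matched 1 row of the 45706 gene rows, and all 35 were among the 14645 genes with enough counts to test. The livers came from C57BL/6 mice, 4 labelled HuR WT (WT1 to WT4) and 4 labelled HuR KO (KO1 to KO4), with 1 library for each animal. The Elavl1 gene encodes HuR, which binds RNA. No treatment is named, and the deleted exons, any Cre driver, the targeted cells and the age of the mice are not given in the sources used here. Animal numbers in the labels form a pair of series: WT3, KO3 and KO4 carry the numbers 98 to 100, and the other 5 libraries carry 4-digit numbers. What the series mark is not stated.

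The liver makes fatty acids from acetyl-CoA that leaves the mitochondria as citrate or is made from acetate in the cytosol. Acetyl-CoA carboxylase and fatty acid synthase build the saturated chain with NADPH as the reductant, elongases and desaturases lengthen and unsaturate it, and acyl-CoA synthetases activate it. Acyl chains are then joined to glycerol-3-phosphate, the phosphate is removed and a last acyl transfer gives triglyceride, a programme that the transcription factors SREBP-1 and ChREBP induce after feeding.

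Elavl1, the gene named by the genotype labels, was no lower in KO than in WT. It stood at 32.7, 45.7, 42.9 and 46.6 counts-per-million (CPM) units in WT1 to WT4 and at 49.4, 56.0, 49.1 and 45.6 CPM in KO1 to KO4 (log2 fold change 0.25 ± 0.11 SE, edgeR adjusted p = 0.258). The level of the whole transcript thus does not separate the labels, and directions are given for the libraries labelled KO against those labelled WT. Total gene counts ran from 18649618 to 31249286 per library. Hepatocyte markers such as Alb and Ttr summed to 131800 to 147200 CPM in WT and 118000 to 142800 CPM in KO, so the labelled tissue held its defining transcripts. Of 8 hepatocyte markers 0 were called, and 6 log2 fold changes were below 0 (median −0.09, against 50.8% of all tested genes below 0). Apob had the smallest p among them (log2 fold change −0.39, edgeR adjusted p = 0.0613) and was called lower in 3 of 17 alternative fits. Of 11 tested bile duct markers 10 were called higher in KO, against 2.32% of all tested genes. The summed level of the bile duct markers went from 69.95 to 93.85 CPM in WT to 195.0 to 298.4 CPM in KO. Of 8 stellate cell markers 2 were called higher (against the same 2.32%), Col1a1 and Col3a1. These calls were lost in 1 and 7 of 17 alternative fits (summed level 375.3 to 405.1 CPM against 444.4 to 523.1 CPM). No marker was called among 8 endothelial (343.6 to 410.3 against 380.7 to 416.8 CPM), 8 macrophage (299.2 to 335.4 against 298.8 to 393.8 CPM), 6 lymphocyte (10.28 to 17.93 against 7.03 to 10.19 CPM), 4 neutrophil (2.27 to 7.25 against 2.15 to 4.04 CPM) or 2 adipocyte markers (18.5 to 25.7 against 20.7 to 25.8 CPM). The adipocyte genes Retn and Lep were at 0 in all 8 libraries. The part of the bile duct and stellate markers in the values below was not tested. In bulk tissue, fewer cells of a type and less RNA per cell cannot be told apart.

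As a group the lipogenic genes lay somewhat lower in KO, and 1 of them passed the test. Because the list was chosen with earlier results of these data known, its shares are only described beside those of all tested genes. A gene was called where edgeR's quasi-likelihood test gave a Benjamini-Hochberg adjusted p under 0.05 over all tested genes. Acss2 was called lower (2.86% of the members, against 1.37% of all tested genes), 0 members were called higher (against 2.32%) and 34 did not pass. In sign, 26 of 35 log2 fold changes were below 0 with a median of −0.20, whereas 50.8% of all tested genes were below 0 with a median of −0.0046. At an unadjusted p under 0.05 there were 9 lower members (25.7%, against 8.84% of all tested genes) and 1 higher member (2.86%, against 9.2%). The 4 KO values lay wholly below the 4 WT values for 3 members (8.57%, against 5.01% of all tested genes), namely Acss2, Gpam and Pnpla3, and wholly above them for 0 members (against 6.19%).

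**Figure D1:**
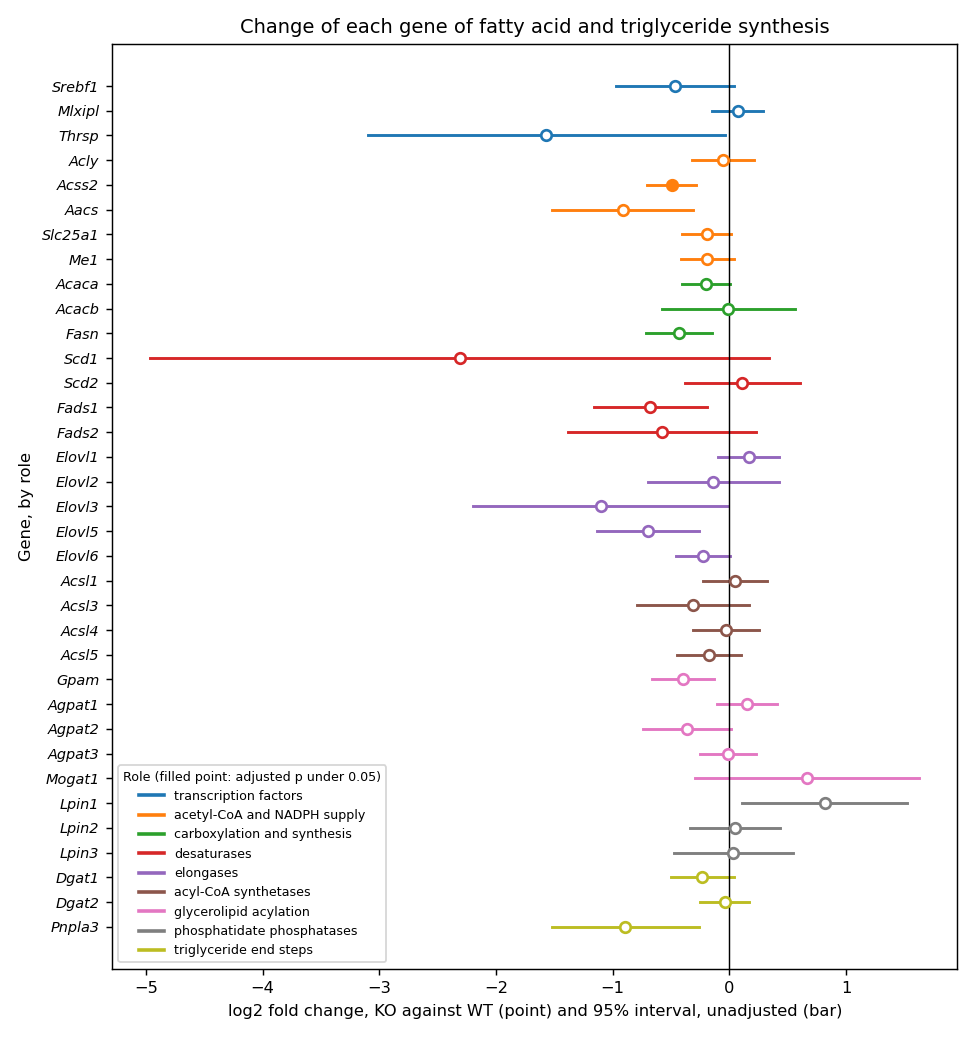
Points give the log2 fold change of each of the 35 genes, KO against WT, with the unadjusted 95% interval as a bar and colours for the role in the pathway; a filled point marks an adjusted p under 0.05. Acss2 at −0.49 is the filled point, and the bars of Scd1 and Thrsp are far wider than that of Dgat2.

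With DESeq2 in place of edgeR 7 members were called lower (against 3.38% of all tested genes): Acss2, Aacs, Fasn, Fads1, Elovl5, Gpam and Pnpla3. The count also moved with single libraries. It was 2 without WT1 (Acss2 and Elovl5, against 0.726% of all genes), 0 without WT2 (against 0.476%), 6 without WT3 (Thrsp, Acss2, Aacs, Fasn, Gpam and Agpat2, against 3.57%) and 0 without KO4 (against 0.557%). With the animal-number series as a covariate 4 were called (Acss2, Aacs, Fads2 and Elovl5, against 2.1%), and among the 5 libraries with 4-digit numbers alone 3 were called (Acss2, Aacs and Fads1, against 1.05%). Among the 3 libraries numbered 98 to 100, which hold 1 WT library and allow values but no call, the median over the members was −0.08, beside −0.20 in the 4-digit series.

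The same genes varied more between animals of a group than the median tested gene. Their median within-group SD was 0.31 log2 units, against 0.23 over all tested genes, and Scd1 stood at percentile 99.9 and Thrsp at 98.5 of that measure. Dgat2, at percentile 5.6, was among the steadiest genes of the liver.

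Promoter sequence is shown for the 3 members whose groups did not overlap and for Fasn, the central enzyme of the pathway. RefSeq promoter windows of 300 bases (250 before to 50 after the annotated start, GRCm38.p6) were matched for 29 members, with 41 windows in all, and there was no entry for Scd1, Scd2, Fads1, Elovl3, Dgat1 or Dgat2. Stretches run 5′ to 3′ along the gene and end just before the annotated start, except that of Acss2, which is cut to the 30 bases around its match because the deposited gene begins upstream of that start. Capitals mark CCAAT or its reverse complement ATTGG, the letters bound by NF-Y, a factor known to act with SREBP on lipogenic promoters. The stretches are chr2:155517958-155517987 (plus strand) for Acss2, chr19:55127239-55127388 (minus strand) for Gpam, chr15:84167666-84167815 (plus strand) for Pnpla3 and chr11:120824548-120824697 (minus strand) for Fasn.
Acss2: gccctacccactATTGGatgcctagagcac
Gpam: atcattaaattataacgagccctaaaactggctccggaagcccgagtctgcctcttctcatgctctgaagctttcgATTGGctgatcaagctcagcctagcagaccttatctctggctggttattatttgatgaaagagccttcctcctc
Pnpla3: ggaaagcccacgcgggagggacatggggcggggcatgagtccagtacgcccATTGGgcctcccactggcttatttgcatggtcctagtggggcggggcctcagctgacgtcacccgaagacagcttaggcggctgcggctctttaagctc
Fasn: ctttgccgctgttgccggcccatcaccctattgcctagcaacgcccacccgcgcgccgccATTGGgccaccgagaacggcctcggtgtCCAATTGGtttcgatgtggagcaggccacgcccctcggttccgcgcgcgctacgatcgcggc

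The match ended 68 bases before the annotated start in Acss2, 69 in Gpam and 94 in Pnpla3. The counted Acss2 gene starts at base 155517948 of the plus strand, so the whole Acss2 stretch, with its match, lies within the span of that gene. Of 2 RefSeq windows for Gpam the one with more matches was shown, so its match comes from that choice. It begins far upstream of the counted gene, whose start is at base 55099451 of the minus strand. The window at that start (chr19:55099428-55099727) held 0 matches. Fasn held 3 matches, ending 85, 57 and 54 bases before the annotated start, of which the last pair overlap in the run CCAATTGG. That start lies upstream of the counted Fasn gene, which begins at base 120824178 of the minus strand. On either strand CCAAT occurred in 20 of the 41 member windows (48.78%), belonging to 19 genes, in 37.41% of all 32851 windows of the table and in 37.22% of the 13453 windows of tested genes. The sterol element TCACNCCAC was found in 2 member windows (4.88%, those of Acsl1 and Mlxipl) against 1.24% of all windows and 1.16% of those of tested genes. The E-box CACGTG was found in 5 member windows (12.2%, those of Elovl5, Lpin2, Lpin3, Mlxipl and Slc25a1) against 7.15% of all windows and 9.68% of the windows of tested genes. None of these 4 stretches held the longer sterol element or the E-box, which says only that these letters are not in them.

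Among the regulators, SREBP-1 transcripts were lower on average and ChREBP transcripts were not. Srebf1 encodes SREBP-1, and its isoforms are counted together in this table. It stood at 151.9, 96.3, 81.7 and 129.3 CPM in WT1 to WT4 and at 80.5, 101.4, 58.4 and 91.6 CPM in KO1 to KO4. KO3 was the lowest library, but the groups overlapped, since WT2 and WT3 lay within the KO range (log2 fold change −0.47 ± 0.22 SE, adjusted p = 0.315, exact permutation p = 0.171). It was −0.46 in the 4-digit series and −0.13 in the other. Mlxipl, which encodes ChREBP, the glucose-responsive factor, stood at 233.8, 258.0, 283.8 and 243.9 CPM in WT and at 289.1, 236.2, 266.9 and 279.7 CPM in KO. The groups lay over each other, and the 95% interval of the KO to WT ratio was 0.904 to 1.22 (adjusted p = 0.770).

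Thrsp, also called Spot 14, is a lipogenic protein gene induced by thyroid hormone and carbohydrate. It stood at 182.5, 110.2, 23.7 and 145.8 CPM in WT1 to WT4 and at 28.0, 62.3, 33.7 and 31.5 CPM in KO1 to KO4. In 3 WT libraries it was above every KO library, while WT3 was the lowest of all 8. The log2 fold change of −1.57 ± 0.63 SE did not pass the test (adjusted p = 0.266, exact permutation p = 0.143), was −1.69 among the 4-digit animals and 0.46 among those numbered 98 to 100, and passed without WT3.

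**Figure D2:**
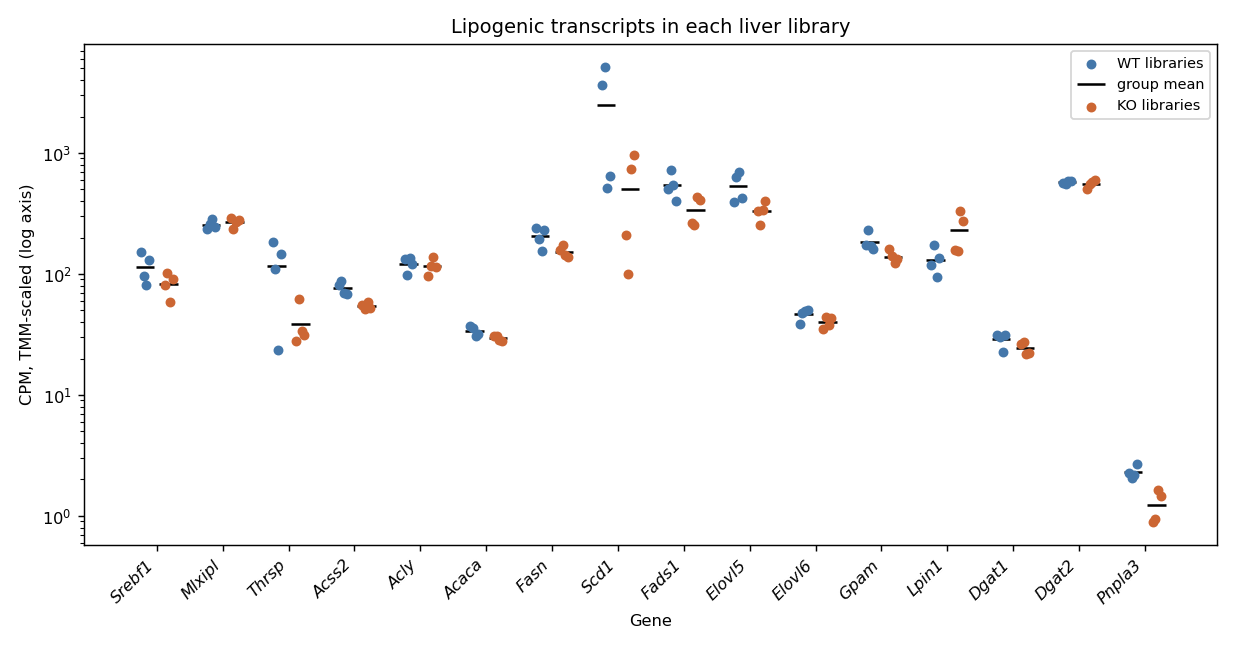
Each point is 1 library's TMM-scaled CPM on a log axis for 16 of the genes, WT in blue and KO in orange, with black bars at the group means. The 4 KO values lie below all WT values for Acss2, Gpam and Pnpla3, whereas Scd1 spreads from 100.8 to 5159 CPM and Dgat2 only from 500.0 to 602.9 CPM.

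The supply of acetyl-CoA and NADPH held the 1 called gene. Acss2, the cytosolic acetyl-CoA synthetase that makes acetyl-CoA from acetate (chr2:155517948-155585724, mm10), stood at 81.2, 87.5, 69.5 and 67.9 CPM in WT1 to WT4. In KO1 to KO4 it stood at 55.4, 50.9, 58.6 and 52.5 CPM. Every KO library lay below every WT library, with means of 76.5 ± 9.41 and 54.3 ± 3.42 CPM (SD, n = 4 libraries each). It was 1.41-fold lower in KO (95% interval 1.22 to 1.63, log2 fold change −0.49 ± 0.10 SE, adjusted p = 0.0138), and the call was lost without WT2 (adjusted p = 0.057) and without KO4 (adjusted p = 0.0535). Its log2 fold change was −0.57 in the 4-digit series and −0.33 in the other.

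ATP-citrate lyase, the other source of cytosolic acetyl-CoA, showed no such gap. Acly stood at 133.0, 97.7, 134.3 and 120.8 CPM in WT1 to WT4 and at 96.7, 116.2, 139.1 and 115.0 CPM in KO1 to KO4. The highest library was KO3 and the lowest KO1, and the interval of the ratio was 0.799 to 1.16 (adjusted p = 0.863). Aacs, which activates acetoacetate for lipid synthesis, stood at 25.1, 16.9, 9.29 and 17.3 CPM in WT1 to WT4 and at 9.48, 11.1, 6.68 and 9.02 CPM in KO1 to KO4. Here 3 WT libraries lay above all KO libraries and WT3 lay among them (log2 fold change −0.91 ± 0.27 SE, adjusted p = 0.101). It was −0.94 in the 4-digit series and −0.24 in the other. Slc25a1, the mitochondrial citrate carrier, and Me1, the cytosolic malic enzyme that yields NADPH, had log2 fold changes of −0.20 and −0.19 with overlapping groups (adjusted p = 0.318 and 0.374).

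In carboxylation and chain synthesis, the mean level was lower in KO for Acaca and Fasn and about equal for Acacb. Acaca, the cytosolic acetyl-CoA carboxylase, stood at 36.8, 35.5, 30.5 and 32.2 CPM in WT1 to WT4 and at 30.6, 30.8, 28.3 and 27.7 CPM in KO1 to KO4. Only WT3 fell inside the KO range, by a narrow margin, and the difference was small (log2 fold change −0.20 ± 0.10 SE, adjusted p = 0.283, exact permutation p = 0.0857). Acacb, the carboxylase at the mitochondrial surface whose product restrains fatty acid oxidation, went from 63.5 ± 12.1 to 63.1 ± 20.2 CPM (SD, n = 4 libraries each), with an interval of the ratio of 0.669 to 1.47.

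Fasn, the fatty acid synthase gene, stood at 241.8, 192.7, 155.9 and 229.6 CPM in WT1 to WT4 and at 156.5, 172.2, 142.1 and 137.1 CPM in KO1 to KO4. WT1, WT2 and WT4 were above all KO libraries, and WT3 lay under KO1 and KO2. The mean was 1.35-fold lower in KO (95% interval 1.11 to 1.64), which missed the edgeR threshold (log2 fold change −0.43 ± 0.13 SE, adjusted p = 0.0865) and passed with DESeq2 (adjusted p = 0.0397). It was −0.43 in the 4-digit series and −0.16 among the animals numbered 98 to 100.

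The desaturases showed the widest spread. Scd1, the main hepatic stearoyl-CoA desaturase, which makes oleate and palmitoleate, stood at 3639, 5159, 511.3 and 643.9 CPM in WT1 to WT4. In KO1 to KO4 it stood at 210.4, 100.8, 730.5 and 967.2 CPM. WT1 and WT2 were far above all others and KO1 and KO2 far below, while WT3 and WT4 lay under KO3 and KO4. The log2 fold change of −2.31 had an SE of 1.09 (adjusted p = 0.337, exact permutation p = 0.171). It was −4.34 within the 4-digit series and 0.73 within the animals numbered 98 to 100, so the sign turned between the series. In the same libraries the clock output gene Dbp, chosen after its values were seen, stood at 8.46, 22.65, 49.0 and 2.66 CPM in WT and at 1.24, 1.14, 18.1 and 41.4 CPM in KO. Dbp was, like Scd1, lowest in KO1 and KO2, whereas WT3, low for Scd1, was the highest library for Dbp. WT4 was the next lowest library for Dbp but not for Scd1, and the other clock genes were not set beside Scd1. The part of clock phase in the spread of Scd1 was not tested.

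Scd2, a close paralog that is most abundant outside the liver, was far lower than Scd1, and reads that fit both genes equally are uncertain in this count. It stood between 5.72 and 12.5 CPM in WT and between 6.89 and 10.49 CPM in KO, with WT1 the highest and WT3 the lowest library. Per kilobase of exon, Scd1 was 285.3 ± 237.8 times as abundant as Scd2 in WT and 57.8 ± 42.8 times in KO (SD of the ratio, n = 4 libraries each).

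Fads1, the delta-5 desaturase of polyunsaturated fatty acid synthesis, stood at 500.7, 719.7, 540.9 and 404.3 CPM in WT1 to WT4 and at 263.4, 254.0, 432.1 and 405.9 CPM in KO1 to KO4. KO1 and KO2 were lowest, and WT4 overlapped KO3 and KO4 (log2 fold change −0.68 ± 0.22 SE, adjusted p = 0.128). It was −1.06 in the 4-digit series, where it was called (adjusted p = 0.0347), and −0.37 in the other. Fads2, the delta-6 desaturase, ranged from 256.2 to 610.6 CPM in WT and from 171.9 to 331.1 CPM in KO, with WT3 the highest (log2 fold change −0.58 ± 0.34 SE, adjusted p = 0.441). With the series as a covariate Fads2 was called at −0.77 (adjusted p = 0.016).

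Of the elongases, Elovl5 showed the clearest gap. Elovl5, which lengthens polyunsaturated chains, stood at 391.1, 629.0, 701.7 and 425.4 CPM in WT1 to WT4 and at 329.6, 252.5, 339.6 and 400.4 CPM in KO1 to KO4. The groups touched only where KO4 exceeded WT1, and the mean was 1.62-fold lower (95% interval 1.20 to 2.20, log2 fold change −0.70 ± 0.20 SE, adjusted p = 0.0823). The direction was the same in both series, at −0.72 and −0.93. Elovl6, which lengthens palmitate to stearate, stood at 38.9, 47.8, 49.8 and 50.2 CPM in WT and at 35.2, 44.3, 37.6 and 43.0 CPM in KO. WT1 lay inside the KO range, and the difference was small (log2 fold change −0.22 ± 0.11 SE, adjusted p = 0.297, exact permutation p = 0.114).

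Elovl2, which acts on the longest polyunsaturated chains, was between 535.0 and 1283 CPM in WT and between 597.8 and 875.8 CPM in KO (log2 fold change −0.14, adjusted p = 0.835). Its highest library was WT3, and without that library the log2 fold change was 0.18. Elovl1, an elongase of saturated very long chains, was at 0.17 (adjusted p = 0.525). Elovl3 was close to the detection limit, from 0.301 to 2.61 CPM and 8 to 47 counts per library, and its log2 fold change of −1.10 ± 0.51 SE did not pass (adjusted p = 0.272).

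**Figure D3:**
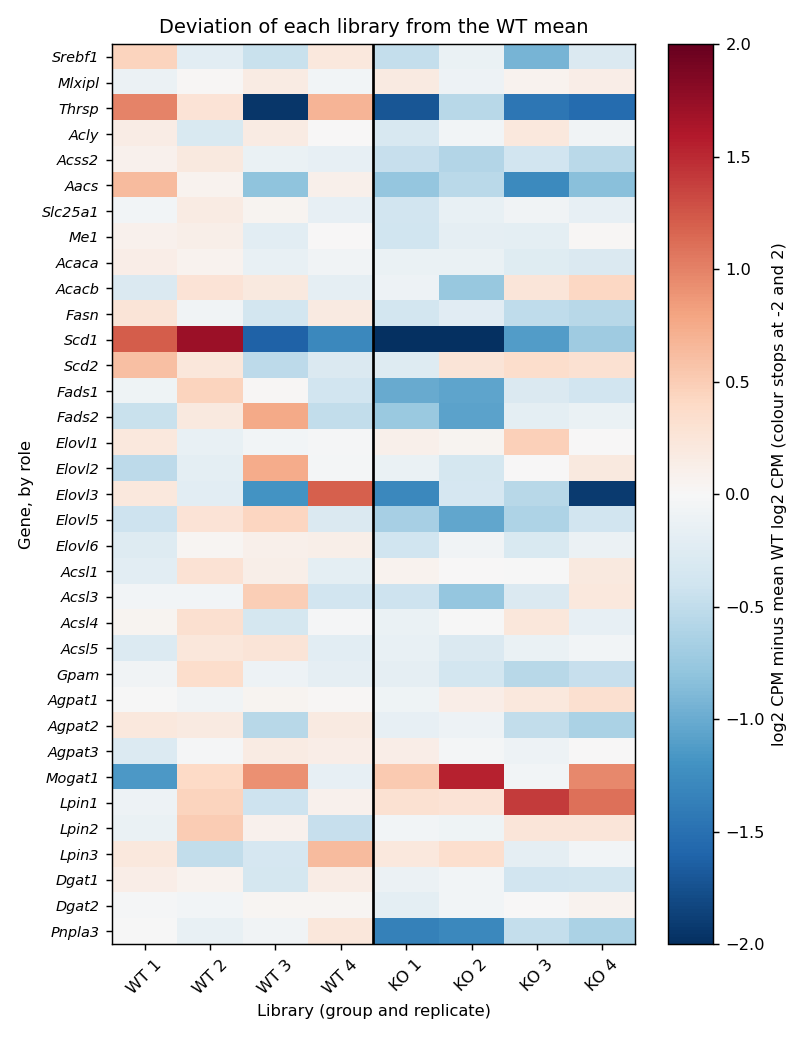
Colours give each library's log2 CPM minus the WT mean for the 35 genes, blue below and red above, with the colour stopped at −2 and 2. In KO1 to KO4, 28, 28, 24 and 21 of 35 genes lie below the WT mean, against 19, 12, 18 and 19 in WT1 to WT4. KO4 is thus close to WT1 and WT4 by this count, and Lpin1 and Mogat1 are mostly red in the KO columns.

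Acyl-CoA synthetases, which activate free fatty acids, held no called gene. Acsl1, the main hepatic synthetase, went from 1526 ± 262 to 1580 ± 105 CPM (SD, n = 4 libraries each), with a 95% interval of the ratio of 0.856 to 1.25. Acsl5 was at −0.17, Acsl3 at −0.31 and Acsl4 at −0.03 on the log2 scale, none past the test (adjusted p = 0.531, 0.509 and 0.939). Their 95% intervals of the ratio were 0.732 to 1.075, 0.577 to 1.125 and 0.805 to 1.192, widest for Acsl3. Per kilobase of exon, the ratio of Acsl1 to Acsl5 was 1.42 ± 0.09 in WT and 1.65 ± 0.08 in KO (SD, n = 4 libraries each), a description that was not tested.

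Glycerolipid assembly opens with the acylation of glycerol-3-phosphate, and its mitochondrial enzyme gene Gpam was lower in each KO library. Gpam (chr19:55069734-55099451, mm10) stood at 174.1, 231.9, 169.4 and 160.3 CPM in WT1 to WT4 and at 160.1, 141.5, 123.4 and 132.4 CPM in KO1 to KO4. The groups did not overlap, though KO1 came within 1 CPM of WT4. The mean was 1.32-fold lower (95% interval 1.10 to 1.59, log2 fold change −0.40 ± 0.12 SE), which missed the threshold over all genes (adjusted p = 0.0919). The exact permutation p = 0.0286, the smallest that 4 against 4 libraries allow, follows from the lack of overlap and adds nothing to it. The log2 fold change was −0.32 in the 4-digit series and −0.41 in the other.

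The acyltransferases of the next step were mixed. Agpat2, the main hepatic enzyme that makes phosphatidate, stood at 297.9, 291.6, 175.6 and 293.1 CPM in WT1 to WT4 and at 229.7, 242.3, 184.8 and 166.9 CPM in KO1 to KO4. WT3 was again inside the KO range, and the other 3 WT libraries lay above all KO libraries (log2 fold change −0.36 ± 0.17 SE, adjusted p = 0.298, and called without WT3 at adjusted p = 0.0186). It was −0.32 in the 4-digit series and −0.0022 in the other. Agpat1 was at 0.15 and Agpat3 at −0.01 on the log2 scale (adjusted p = 0.550 and 0.977). Mogat1, which acylates monoacylglycerol, was near the detection limit at 10 to 68 counts per library, with a log2 fold change of 0.67 ± 0.45 SE (adjusted p = 0.477).

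The lipins, phosphatidate phosphatases that release diacylglycerol, held the 1 member above 0 at an unadjusted p under 0.05. Lpin1, which also acts as a transcriptional coactivator in fasted liver, stood at 118.1, 172.9, 94.97 and 134.7 CPM in WT1 to WT4 and at 156.8, 153.8, 334.3 and 272.8 CPM in KO1 to KO4. KO3 and KO4 were above every other library, whereas KO1 and KO2 lay below WT2. The log2 fold change of 0.82 ± 0.30 SE did not pass over all genes (adjusted p = 0.212), and it was 0.13 in the 4-digit series and 1.67 among the animals numbered 98 to 100. Lpin2 and Lpin3 were at 0.05 and 0.03 on the log2 scale (adjusted p = 0.921 and 0.963). Per kilobase of exon the ratio of Lpin2 to Lpin1 was 1.07 ± 0.31 in WT and 0.66 ± 0.17 in KO (SD, n = 4 libraries each).

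The last acyl transfer was carried by Dgat2 and Dgat1, and Dgat2 was nearly constant. Dgat2, which takes up newly made fatty acids, stood at 567.5, 550.9, 588.5 and 591.3 CPM in WT1 to WT4 and at 500.0, 554.0, 579.6 and 602.9 CPM in KO1 to KO4. KO1 was the lowest and KO4 the highest library, and the interval of the ratio was 0.84 to 1.13 (adjusted p = 0.886). Dgat1, the other diacylglycerol acyltransferase, stood at 31.2, 29.96, 22.5 and 31.6 CPM in WT and at 26.2, 27.6, 21.9 and 22.1 CPM in KO. All KO libraries lay below WT1, WT2 and WT4, and WT3 lay among KO (log2 fold change −0.23 ± 0.13 SE, adjusted p = 0.353, exact permutation p = 0.171). It was −0.20 in the 4-digit series and −0.03 in the other.

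Pnpla3, a patatin-like lipid droplet protein whose transcript follows SREBP-1 activity, was the lowest member per length. It stood at 2.26, 2.055, 2.18 and 2.66 CPM in WT1 to WT4 and at 0.890, 0.936, 1.63 and 1.47 CPM in KO1 to KO4, from 23 to 66 counts per library. The groups did not overlap, with KO1 and KO2 the lowest. The mean was 1.85-fold lower (95% interval 1.20 to 2.87, log2 fold change −0.89 ± 0.29 SE), which missed the threshold (adjusted p = 0.111). Here too the exact permutation p = 0.0286 only restates the lack of overlap. The log2 fold change was −1.34 in the 4-digit series and −0.50 in the other.

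Per kilobase of exon, the WT levels of the pathway spanned about 3 orders of magnitude. The exon length, here and above, is the annotated one of each gene and not that of the transcript made in liver. The order of the genes and the ratios between them depend on it. Scd1 led at 514.6 ± 474.1 CPM per kilobase (SD, n = 4 libraries), and its spread covered the next ones, Fads2 at 256.1 ± 110.1, Dgat2 at 255.3 ± 8.46 and Elovl2 at 209.8 ± 85.2. Acsl1, Fads1, Elovl5, Agpat2 and Acsl5 followed from 161.5 down to 114.6, neighbours that do not differ beyond their spread. Fasn stood at 20.8 ± 3.94 and Srebf1 at 20.4 ± 5.63, also within each other's spread. Acss2 stood at 7.53 ± 0.93, and Elovl3, Mogat1 and Pnpla3 closed the order at 0.904, 0.590 and 0.493. In KO the level of Scd1 was 103.8 ± 85.6, below that of Dgat2 at 248.4 ± 19.6. Dgat2 was 27.7 ± 5.27 times as abundant as Dgat1 in WT and 31.5 ± 5.73 times in KO, per kilobase.

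**Figure D4:**
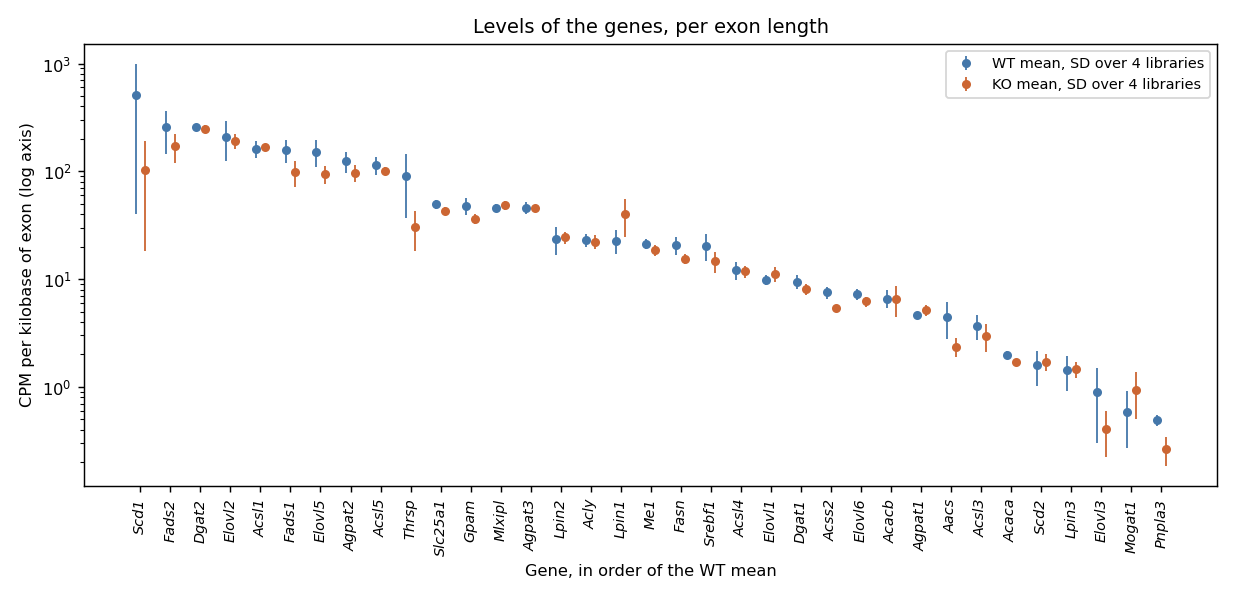
Points and bars give the mean and SD of CPM per kilobase of exon over the 4 WT (blue) and 4 KO (orange) libraries, on a log axis, in the order of the WT means. Scd1 is highest in WT at 514.6 with the widest bar, and Dgat2 keeps about 250 CPM per kilobase in both groups (255.3 and 248.4).

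Library by library, the mean log2 deviation of the 35 genes from their WT means was 0.03, 0.14, −0.14 and −0.03 in WT1 to WT4 and −0.39, −0.34, −0.21 and −0.17 in KO1 to KO4. All KO libraries were below all WT libraries, with WT3 the nearest. The median deviation of the 35 genes was −0.01, 0.11, −0.05 and −0.02 in WT1 to WT4 and −0.20, −0.14, −0.20 and −0.11 in KO1 to KO4. By the same measure, the median over all tested genes stayed between −0.0001 and 0.0123 in each library. In total the 35 genes summed to 7300 to 13240 TMM-scaled CPM in WT and 6067 to 8115 in KO, ranges that overlapped at WT4 and that Scd1 moves most.

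The enzymes around the pathway were described from further lists, of which the called genes or the 1 of smallest p are named. Beside the counts called in each of these lists, 1.37% of all tested genes were called lower and 2.32% higher. Among 21 tested genes of other fatty acid and glycerolipid assembly enzymes (of 24 listed) 1 was called lower, 0 were called higher, and the median log2 fold change was −0.04. That gene was Gpat3, a microsomal enzyme for the same first acylation as Gpam, at 20.2, 24.4, 17.9 and 18.2 CPM in WT and 7.32, 10.8, 10.5 and 9.14 CPM in KO. It was 2.13-fold lower with no overlap (log2 fold change −1.09 ± 0.15 SE, adjusted p = 0.00141).

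Among 14 genes of NADPH supply 1 was called lower, 0 higher, with a median of −0.05. It was Tkt, the transketolase of the pentose phosphate route, at 119.0, 133.4, 84.3 and 94.4 CPM in WT and 66.7, 62.2, 73.7 and 65.4 CPM in KO, without overlap (log2 fold change −0.69 ± 0.13 SE, adjusted p = 0.0102; −0.28 among the animals numbered 98 to 100). G6pdx and Pgd of the same list did not pass (log2 fold changes −0.37 and −0.08, edgeR adjusted p = 0.412 and 0.724). Among 12 tested other elongation and desaturation genes (of 15 listed) 0 were called lower and 1 higher, with a median of −0.10. It was Elovl7, an elongase paralog at low level, at 0.994 ± 0.377 CPM in WT and 3.21 ± 0.635 CPM in KO, with no overlap (adjusted p = 0.0075). The rise of Elovl7 stood beside that of the bile duct markers, and their part in it was not tested.

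Of 24 lipogenic regulators 1 was called lower and 0 higher, with a median of −0.01. It was Prkaa2, a catalytic subunit of the energy sensor AMPK, at 93.3 ± 5.37 CPM in WT and 73.7 ± 3.10 CPM in KO (adjusted p = 0.0362), a call lost without WT1 (adjusted p = 0.0964), WT2 (0.113), KO1 (0.0903), KO3 (0.126) or KO4 (0.111), under upper quartile scaling (0.0515), with a replicate block (0.0531) and in the 4-digit series (0.189). No gene was called in either direction among 14 ChREBP targets and sugar entry genes (median −0.03; Tm6sf2 had the smallest p, at 0.46 on the log2 scale and adjusted p = 0.0685) or 18 phospholipid branch genes (median −0.08; Chkb, a choline kinase, at −0.37 and adjusted p = 0.0558). The 22 cholesterol synthesis genes, a sterol-regulated neighbour of this programme, had 6 called lower (against 1.37% of all tested genes), 0 higher and a median of −0.57. The first by p were Tm7sf2 at −0.69, Nsdhl at −1.25 and Hsd17b7 at −0.53 on the log2 scale (adjusted p = 0.00311, 0.00596 and 0.0117).

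No gene was called among 14 fasting response genes (median −0.01; smallest p for Creb3l3, adjusted p = 0.362) or 15 clock genes (median −0.24; smallest p for Hlf, adjusted p = 0.218). Within groups these lists were unsteady, with a median SD of 0.41 and 0.74 log2 units against 0.23 over all tested genes. The part of that spread in the members' values was not tested.

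**Figure D5:**
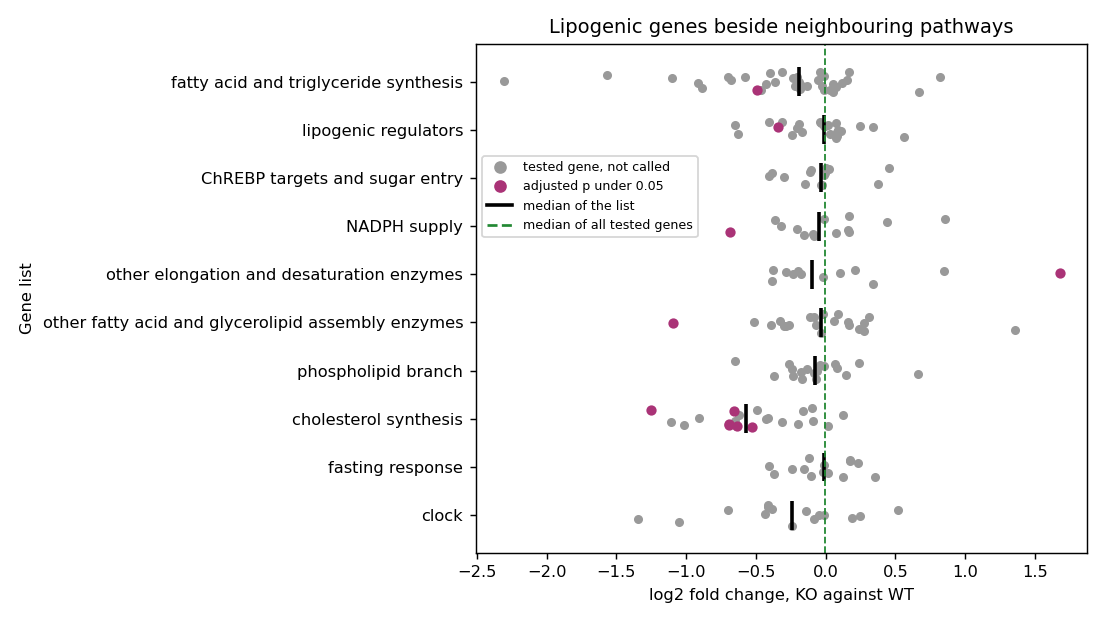
Each point is a tested gene's log2 fold change, KO against WT, in rows for the 35 genes and 9 further lists, with black bars at the list medians, a dashed line at the median of all tested genes and called genes in purple. The bar of the 35 genes lies at −0.20, right of cholesterol synthesis at −0.57 and clock at −0.24 and left of the other 7 lists.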

How the data were processed

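Read calling used bcl2fastq 2.19.1, alignment to mm10 (GRCm38) used GSNAP and counting used featureCounts 1.5.1, per the file headers and the submitters' processing notes, with Ensembl 81 genes, strand setting 2 and minimum mapping quality 1. The deposited values are raw counts per gene. Per the labels' protocols, frozen liver was extracted with a Nucleospin kit and made into directional NEBNext libraries. The 92 ERCC spike-in rows held 0 counts and were left out, and 45143 of 45706 gene identifiers matched a symbol.

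In R 4.3.3, edgeR 4.0.16 kept genes by filterByExpr (minimum count 10) and applied TMM scaling (a trimmed mean of log ratios). It compared 4 KO with 4 WT libraries by its robust quasi-likelihood test with Benjamini-Hochberg adjustment over 14645 genes. On simulated counts this test recovered 19 of 50 genes changed 1.5-fold, 38 of 50 at 2-fold and 46 of 50 at 3-fold. It called 4 of 14445 unchanged genes. The simulated spread followed the trend over all genes, so changes of the size of most members could often be missed. CPM is TMM-scaled, log2 CPM has a prior count of 2, and intervals are unadjusted. Single genes were also compared by exact two-sided permutation over all 70 splits (smallest p 0.0286). Alternatives used DESeq2 1.42.0, limma-voom (limma 3.58.1), other scalings and filters, a replicate block, the number series and leave-one-out. Replicate numbers were not treated as pairs.

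The members and lists were chosen with earlier results of these data known. All members are given, and from each further pathway list the called genes (at most 3 by p) or the 1 of smallest p. Outside this rule, Dbp was named after its values were seen. Motifs were searched on both strands.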

Additional observations from a re-analysis of the deposited data

Results flagged for a closer look

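In each of the 70 groups (35 genes in WT and in KO) the highest and lowest library were compared with the others by their gap relative to the group's range, and 3 groups held a library that stood apart. Chance flags about 1 in 20 groups. Agpat2 stood at 175.6 CPM in WT3 and at 291.6 to 297.9 CPM in the other WT libraries. Dgat1 stood at 22.47 CPM in WT3 and at 29.96 to 31.55 CPM in the other WT libraries. Scd2 stood at 6.89 CPM in KO1 and at 9.881 to 10.49 CPM in the other KO libraries.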

How the results depend on the processing

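The count of members called lower, 1 with edgeR, was 7 with DESeq2, 3 without the low-count filter (Acss2, Fasn and Gpam, against 1.34% of all genes), 2 with a replicate block (Acss2 and Aacs, against 1.44%), 4 with the number series as a covariate, 3 in the 4-digit series and 0 to 6 when leaving out 1 library. The cause was not tested, save that the single series and the leave-one-out fits hold fewer libraries. It was 1 under RLE and upper quartile scaling, limma-voom and the stricter filter, and 0 members were called higher in any fit. Same-numbered libraries deviated with correlations of 0.03, 0.03, 0.12 and −0.15, and 1 of 4 WT libraries correlated best with its own number. No label pairs them, but WT1 with KO1, WT2 with KO2 and WT3 with KO3 share a number series. These 4 correlations do not settle whether they share more. The median member log2 fold change moved from −0.195 to −0.0836 among the animals numbered 98 to 100. With the sterol core CACNCCAC in place of the longer motif, 6 member windows matched, not 2 (14.63%, against 6.24% of all windows and 6.38% of those of tested genes).

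Of 967 values of the 57 genes followed under alternatives that give an adjusted p, 883 kept direction and side of the threshold and 31 turned in sign. Of the 57 values among the animals numbered 98 to 100, which have none, 11 turned in sign. Among the animals numbered 98 to 100, with 1 WT library, the turned log2 fold changes were −0.0579 for Mlxipl, 0.46 for Thrsp, 0.12 for Me1, 0.13 for Acacb, 0.73 for Scd1, 0.11 for Elovl3, −0.03 for Acsl1, 0.39 for Acsl4, −0.37 for Mogat1, 0.003 for Dgat2 and −0.35 for the adipocyte marker Adrb3. In the 4-digit series they were −0.20 for Scd2, 0.0943 for Agpat3 and −0.10 for Lpin2. With the series as a covariate they were 0.0129 for Acsl4 and −0.0096 for Lpin2, and under upper quartile scaling 0.014 for Acacb and 0.0155 for Agpat3. Leaving out 1 library gave ranges across 0 for Acly (−0.15 to 0.0237), Acacb (−0.17 to 0.17), Scd2 (−0.0466 to 0.34), Elovl2 (−0.30 to 0.18), Acsl1 (−0.0235 to 0.15), Acsl4 (−0.14 to 0.0848), Agpat3 (−0.10 to 0.0463), Lpin2 (−0.083 to 0.25), Lpin3 (−0.11 to 0.27) and Dgat2 (−0.0765 to 0.0111). Depth limits Elovl3, Mogat1 and Pnpla3 most, with at most 68 counts in any library.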
